A study of Mus musculus with 29 samples.

Results

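The CC chemokine ligands described here are 10 mouse genes: Ccl2, Ccl3, Ccl4, Ccl5, Ccl6, Ccl7, Ccl8, Ccl9, Ccl11 and Ccl12. They were picked by symbol among the 51456 gene symbols listed for every library, by a rule that names genes and no level. The data were bulk RNA-seq of the aortic arch of male C57BL/6 mice on standard chow, 1 library per sample, from a cardiovascular safety study of sclerostin inhibition. The Scl_Ab group (n = 10) were ApoE KO mice infused with angiotensin II (AngII) and injected with a sclerostin antibody at 10 mg/kg under the skin once weekly for 4 weeks. The Vehicle group (n = 9) were ApoE KO mice with the same AngII infusion and vehicle injections. The WT group (n = 10) were wild-type mice whose pumps and injections held vehicle. The AngII pumps held 15.27 mg/mL and were set to release 0.11 µL/hr. The labels give an age of 14 weeks, which is also about the age at which the pumps were implanted. ApoE was missing from the whole animal and AngII was given to every ApoE KO mouse, so the effects of genotype and infusion cannot be told apart against WT, which differed from both other groups in both. The protocol counts 9 wild-type mice while 10 libraries carry that label.

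CC chemokines are small secreted proteins that steer leukocytes along a gradient through receptors of the CCR family. In the arterial wall they are known above all for drawing monocytes from the blood into the intima and adventitia, where these become macrophages. Ccl2, Ccl7 and Ccl12 act on monocytes through Ccr2, while Ccl3, Ccl5, Ccl6 and Ccl9 act through Ccr1. Ccl11, eotaxin, acts on Ccr3 and is known for recruiting eosinophils, and mouse Ccl8 acts on Ccr8.

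All 10 genes lie on chromosome 11 in 2 clusters (GRCm38, GENCODE M21). Ccl2, Ccl7, Ccl11, Ccl12 and Ccl8 follow each other over 81.2 kb at chr11:82035571-82116799. Ccl5, Ccl9, Ccl6, Ccl3 and Ccl4 follow over 139 kb at chr11:83525778-83664683, 1.41 Mb further on. The RefSeq promoter table (GRCm38.p6) held 5 of the 10 genes, each with 250 bases before and 50 bases after the start. The promoters of 4 are shown, because Ccl8 and Ccl12 are neighbours whose balance shifted against WT and Ccl9 and Ccl6 are neighbours whose levels moved together among libraries. Ccl8 lies at chr11:82114935-82115234 and Ccl12 at chr11:82101595-82101894, both on the plus strand. Ccl9 lies at chr11:83578587-83578886 and Ccl6 at chr11:83593038-83593337, both on the minus strand. Capitals mark matches on either strand to TATAAA, to TGANTCA (the AP-1 motif) or to the NF-kB consensus.
Ccl8: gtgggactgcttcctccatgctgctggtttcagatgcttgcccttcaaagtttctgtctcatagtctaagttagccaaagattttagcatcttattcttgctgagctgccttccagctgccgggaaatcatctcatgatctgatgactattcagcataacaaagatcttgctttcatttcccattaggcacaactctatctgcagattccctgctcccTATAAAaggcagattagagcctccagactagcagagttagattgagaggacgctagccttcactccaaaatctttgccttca
Ccl12: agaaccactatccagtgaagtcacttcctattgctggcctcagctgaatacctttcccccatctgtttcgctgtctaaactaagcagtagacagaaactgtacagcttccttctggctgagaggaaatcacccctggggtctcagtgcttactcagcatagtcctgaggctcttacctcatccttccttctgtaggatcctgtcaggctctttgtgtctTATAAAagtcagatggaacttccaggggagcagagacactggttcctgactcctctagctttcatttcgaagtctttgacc
Ccl9: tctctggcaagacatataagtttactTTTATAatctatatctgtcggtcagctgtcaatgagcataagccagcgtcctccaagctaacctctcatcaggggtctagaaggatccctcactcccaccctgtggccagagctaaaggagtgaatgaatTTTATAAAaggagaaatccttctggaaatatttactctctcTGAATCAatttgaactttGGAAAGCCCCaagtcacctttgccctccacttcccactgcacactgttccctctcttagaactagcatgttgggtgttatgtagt
Ccl6: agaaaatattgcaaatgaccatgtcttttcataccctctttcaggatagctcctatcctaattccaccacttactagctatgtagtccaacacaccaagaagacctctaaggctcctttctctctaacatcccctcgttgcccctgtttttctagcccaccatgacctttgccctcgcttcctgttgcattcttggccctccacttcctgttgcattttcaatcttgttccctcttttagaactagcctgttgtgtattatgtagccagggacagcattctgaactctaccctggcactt

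The letters TATAAA began 32 bases before the start in Ccl8 and 31 bases before it in Ccl12. Of 32851 mouse promoters of this length, 1.75% hold TATAAA on the gene strand with its first base 35 to 25 bases before the start, and 13.6% hold it anywhere on either strand. The Ccl9 promoter held TATAAA 3 times, one pair overlapping, with the copy on the gene strand 92 bases before the start. Ccl9 was also the one of the 5 member promoters with a match to the NF-kB consensus (8.46% of all promoters) and with TGANTCA (7.81%). No match to TTCNNNGAA (8.3% of all promoters) was found in the 5 windows. GAGGAA, the core letters of PU.1 sites, was found in Ccl12, Ccl8 and Ccl3 (28.3% of all promoters). These matches describe letters in the windows and were not tested against the levels.

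Values are FPKQ, a unit the files do not spell out. It was treated as fragments per length scaled to a common quantile of each library, and every comparison of levels between genes rests on that reading. All 10 ligands were above 0 in at least 26 libraries. In 2 kb of transcript, a value of 1 corresponded to an estimated 31.8 to 43.7 fragments. Apoe checked the labels: it averaged 8.39 ± 2.79 FPKQ in Scl_Ab, 6.71 ± 1.70 in Vehicle and 264 ± 65.0 in WT libraries (SD, n = 10, 9 and 10). Differences were tested with limma on log2(FPKQ + 1) over 13510 genes, those that reached 1 FPKQ in 9 or more libraries, with Benjamini-Hochberg adjustment over all of them. A gene was called at an adjusted p under 0.05. All folds below are on that log2(FPKQ + 1) scale, which understates the change of low genes. All 10 ligands passed the filter, but Ccl3 and Ccl4 reached 1 in no WT library and Ccl5 in 1, so these 3 passed through the AngII-infused groups.

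In Vehicle against WT, 9 of the 10 ligands rose, and Ccl11 alone was not called. Over all genes tested, 53.7% were called, 22.7% higher and 31% lower, so calls in this comparison were common. The median log2 difference was 1.61 over the 10 ligands and -0.04 over all genes tested. Every Vehicle library lay above every WT library for Ccl2, Ccl5, Ccl6, Ccl8 and Ccl9, against 7.81% of all genes tested. For Ccl3, Ccl4, Ccl7 and Ccl12, 8 of the 9 Vehicle libraries lay above the highest WT library. In bulk tissue, fewer cells of a type and less RNA per cell cannot be told apart, and this holds for every level given here.

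In Scl_Ab against WT the same 9 ligands rose, and Ccl11 fell. All 10 Scl_Ab libraries lay above all 10 WT libraries for each of the 9, against 5.74% of all genes tested. Both comparisons use the same WT libraries and are not independent. Of all genes, 50.4% were called here, 19.8% higher and 30.5% lower.

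In Scl_Ab against Vehicle, none of the 10 ligands was called by limma, and none by the Wilcoxon rank sum test. At an unadjusted p under 0.05 stood 1 ligand by limma, Ccl12, and 1 by the Wilcoxon test, Ccl9. Of all genes tested, 7.44% were called, 2.64% higher and 4.8% lower, that is 356 and 649 genes. This count depends on single libraries, with 187 higher and 360 lower without Vehicle library 2, 246 and 382 without Vehicle library 5, and 217 and 390 without Vehicle library 6. The median log2 difference was -0.05 over the 10 ligands and -0.01 over all genes.

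**Figure D1:**
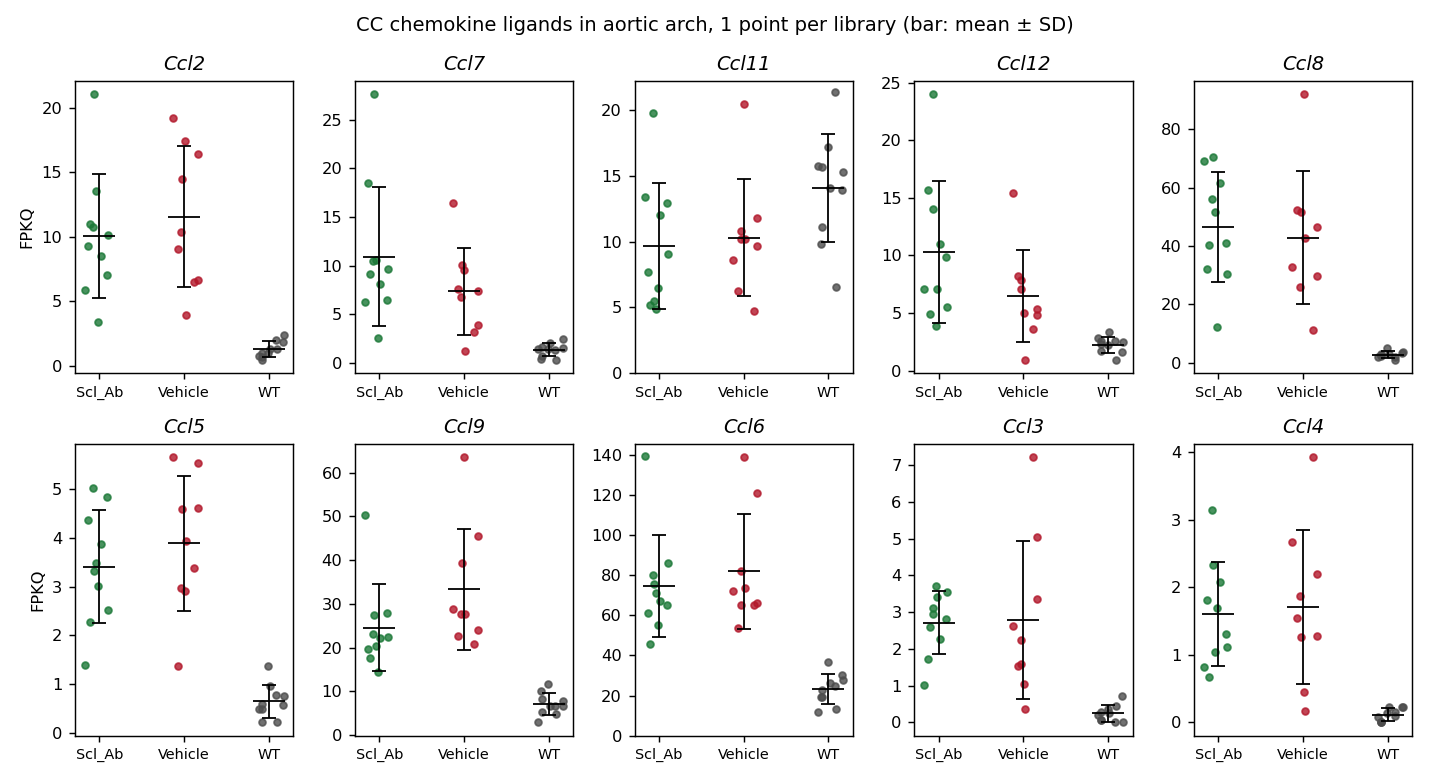
FPKQ of each ligand (linear axis) in the Scl_Ab, Vehicle and WT libraries, 1 point per library, with the mean and SD as bars; the upper row holds the Ccl2 to Ccl8 cluster and the lower row the Ccl5 to Ccl4 cluster in chromosome order. For 9 ligands the Scl_Ab points lie above all WT points, while for Ccl11 the 3 groups overlap and the WT mean of 14.1 is the highest.

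Ccl2, the main attractant of Ccr2-bearing monocytes, ranged over 3.40 to 21.1 FPKQ (median 9.70) in Scl_Ab, over 3.97 to 19.2 (median 10.4) in Vehicle and over 0.482 to 2.39 (median 1.17) in WT libraries. The AngII-infused groups lay wholly above WT and overlapped each other almost completely. The fold was 5.15 in Vehicle against WT (95% confidence interval 3.59 to 7.40, limma adjusted p = 1.13e-08). Scl_Ab against Vehicle gave a fold of 0.892 (0.622 to 1.28, limma adjusted p = 0.748).

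Ccl7, which also acts on Ccr2, ranged over 2.60 to 27.6 FPKQ (median 9.43) in Scl_Ab, over 1.20 to 16.4 (median 7.43) in Vehicle and over 0.358 to 2.43 (median 1.46) in WT libraries. Vehicle library 9, at 1.20, was the one that fell within the WT range. The fold was 3.18 in Vehicle against WT (2.02 to 5.01, limma adjusted p = 8.33e-05). Against Vehicle, Scl_Ab stood at 1.44-fold (0.911 to 2.27, limma adjusted p = 0.324), and 2 of 10 Scl_Ab libraries lay above the highest Vehicle library.

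Ccl12, a Ccr2 ligand known in mice, ranged over 3.84 to 24 FPKQ (median 8.49) in Scl_Ab, over 0.95 to 15.4 (median 5.32) in Vehicle and over 0.963 to 3.31 (median 2.40) in WT libraries. Vehicle library 9 was below the lowest WT library, and the other 8 were above the highest. The fold in Vehicle against WT was 2.06 (1.36 to 3.12, limma adjusted p = 0.00382). Ccl12 in Scl_Ab against Vehicle was at 1.53-fold (1.01 to 2.32), with an unadjusted limma p of 0.0449 and an adjusted p of 0.188. Of the 10 Scl_Ab libraries, 8 lay above the Vehicle median. Leaving out 1 library at a time gave log2 differences between 0.40 and 0.78 and no call.

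Ccl8 had the largest fold of the 10 ligands with pseudocounts of 1 and 0.1, while with 0.01 the log2 differences of Ccl3 and Ccl4 against WT were larger. It ranged over 12.2 to 70.5 FPKQ (median 46.3) in Scl_Ab, over 11.3 to 92.0 (median 42.7) in Vehicle and over 1.01 to 5.01 (median 2.71) in WT libraries. The lowest AngII-infused library thus held more than the highest WT library by a wide margin. The fold was 10.6 in Vehicle against WT (6.98 to 16.1, limma adjusted p = 1.74e-10) and 11.9 in Scl_Ab against WT (7.91 to 17.8, limma adjusted p = 4.08e-11). The ratio of mean FPKQ, with no pseudocount, was 15.4 in Vehicle against WT. Against Vehicle, Scl_Ab stood at 1.12-fold (0.738 to 1.70, limma adjusted p = 0.786).

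Ccl11 went the other way. It ranged over 4.83 to 19.8 FPKQ (median 8.39) in Scl_Ab, over 4.70 to 20.5 (median 10.2) in Vehicle and over 6.58 to 21.4 (median 14.7) in WT libraries. The groups overlapped, with 4 of 10 Scl_Ab libraries and 2 of 9 Vehicle libraries below the lowest WT library. The fold was 0.677 in Scl_Ab against WT (0.489 to 0.937, limma adjusted p = 0.0412) and 0.732 in Vehicle against WT (0.524 to 1.02, limma adjusted p = 0.108). The call in Scl_Ab against WT was lost in 13 of the 20 fits that left out 1 library, without Scl_Ab library 13, 14, 16, 17, 18 or 19 or any WT library from 23 to 29 (limma adjusted p = 0.0515 to 0.0812). In Vehicle against WT, Ccl11 passed without Vehicle library 1 (limma adjusted p = 0.0351) or WT library 21 (limma adjusted p = 0.045).

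Ccl3 and Ccl4, close relatives known as attractants of monocytes and T cells, had the lowest means of the 10 ligands in each group. Ccl3 ranged over 1.02 to 3.72 FPKQ (median 2.88) in Scl_Ab, over 0.370 to 7.22 (median 2.25) in Vehicle and over 0 to 0.718 (median 0.235) in WT libraries. Ccl4 ranged over 0.668 to 3.14 FPKQ (median 1.50) in Scl_Ab, over 0.172 to 3.93 (median 1.54) in Vehicle and over 0 to 0.231 (median 0.113) in WT libraries. Vehicle library 9 again lay within the WT range for both. In WT, Ccl3 was listed at 0 in 2 libraries and Ccl4 in 3, and the highest WT values came to an estimated 11 fragments of Ccl3 and 3 of Ccl4. The fold in Vehicle against WT was 2.70 for Ccl3 (1.96 to 3.73, limma adjusted p = 6.37e-06). It was 2.24 for Ccl4 (1.70 to 2.95, limma adjusted p = 1.24e-05). With a pseudocount of 0.01 the log2 differences in Vehicle against WT reached 4.01 for Ccl3 and 4.19 for Ccl4, against 1.43 and 1.16 with a pseudocount of 1, so their size depends on the pseudocount.

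Ccl5, which draws T cells and monocytes, ranged over 1.38 to 5.02 FPKQ (median 3.40) in Scl_Ab, over 1.38 to 5.66 (median 3.94) in Vehicle and over 0.210 to 1.37 (median 0.571) in WT libraries. The AngII-infused groups cleared the highest WT library only narrowly at their lowest values. The fold in Vehicle against WT was 2.91 (2.27 to 3.73, limma adjusted p = 2.9e-08). Scl_Ab against Vehicle gave a fold of 0.908 (0.709 to 1.16, limma adjusted p = 0.681).

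Ccl6 and Ccl9, Ccr1 ligands of mouse myeloid cells, were with Ccl8 the most abundant of the 10 ligands in the AngII-infused groups. Ccl6 ranged over 45.8 to 139 FPKQ (median 69.2) in Scl_Ab, over 53.5 to 139 (median 72.2) in Vehicle and over 12 to 36.8 (median 23.7) in WT libraries. Its fold in Vehicle against WT was 3.43 (2.59 to 4.55, limma adjusted p = 2.14e-08), and in Scl_Ab against Vehicle 0.915 (0.691 to 1.21, limma adjusted p = 0.748). Ccl9 ranged over 14.4 to 50.3 FPKQ (median 22.3) in Scl_Ab, over 20.7 to 63.6 (median 27.7) in Vehicle and over 2.88 to 11.8 (median 6.64) in WT libraries. The fold in Vehicle against WT was 4.22 (3.11 to 5.72, limma adjusted p = 5.34e-09). Ccl9 in Scl_Ab against Vehicle was at 0.75-fold (0.553 to 1.02, limma adjusted p = 0.23), with 4 of 10 Scl_Ab libraries below the lowest Vehicle library. An antisense gene, E230016K23Rik, spans Ccl6 and averaged 0.333, 0.413 and 0.148 FPKQ in Scl_Ab, Vehicle and WT libraries, far below Ccl6. The antisense gene that spans Ccl2, Gm17268, was listed at 0 in every library.

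**Figure D2:**
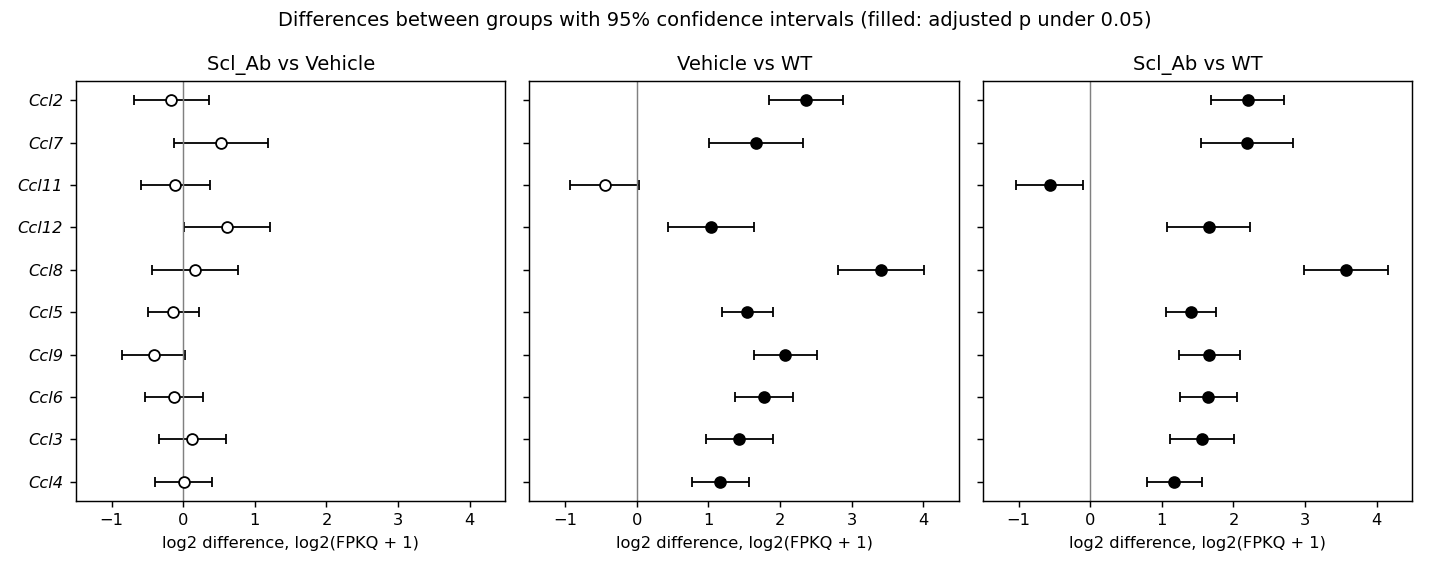
Log2 difference of each ligand with its 95% confidence interval on the log2(FPKQ + 1) scale, for Scl_Ab against Vehicle, Vehicle against WT and Scl_Ab against WT; filled points were called. The intervals of Scl_Ab against Vehicle include 0 for all ligands except Ccl12, whose adjusted p was 0.188, and Ccl8 lies farthest right against WT at 3.41 and 3.57.

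Per length, the order of the ligands differed between the AngII-infused groups and WT. In Scl_Ab the order of mean FPKQ was Ccl6 (74.7), Ccl8 (46.5), Ccl9 (24.5), Ccl7 (10.9), Ccl12 (10.3), Ccl2 (10.1), Ccl11 (9.69), Ccl5 (3.41), Ccl3 (2.71) and Ccl4 (1.60). In Vehicle it was Ccl6 (81.9), Ccl8 (42.7), Ccl9 (33.3), Ccl2 (11.6), Ccl11 (10.3), Ccl7 (7.36), Ccl12 (6.48), Ccl5 (3.89), Ccl3 (2.78) and Ccl4 (1.71). In WT it was Ccl6 (23.2), Ccl11 (14.1), Ccl9 (7.04), Ccl8 (2.77), Ccl12 (2.24), Ccl7 (1.36), Ccl2 (1.29), Ccl5 (0.640), Ccl3 (0.242) and Ccl4 (0.114). The middle ranks of the AngII-infused groups were not separated: Ccl7 was above Ccl12 in 5 of 10 Scl_Ab libraries, Ccl2 above Ccl11 in 5 of 10 Scl_Ab libraries, and Ccl7 above Ccl12 in 5 of 9 Vehicle libraries. In WT, Ccl11 was above Ccl9 in 9 of 10 libraries and Ccl9 above Ccl8 in 10 of 10.

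The summed level of the 10 ligands was 194 ± 54.5 FPKQ in Scl_Ab, 202 ± 68.9 in Vehicle and 53.0 ± 13.8 in WT libraries (SD, n = 10, 9 and 10). Ccl11 made up 5.05% of that sum in Scl_Ab and 5.11% in Vehicle libraries, against 26.9% in WT libraries. Its share ranged over 2.10 to 8.77% in Scl_Ab, 3.62 to 7.41% in Vehicle and 21.9 to 40.9% in WT libraries, with no overlap between either AngII-infused group and WT. Ccl8 made up 23.3% in Scl_Ab, 20.5% in Vehicle and 5.12% in WT libraries, and Ccl6 38.7%, 40.8% and 43.3%. The sum of the 10 thus changed in make-up as well as in amount. Its largest shares were Ccl6 and Ccl11 in WT, and Ccl6 and Ccl8 in the AngII-infused groups. These shares follow from the levels above and are given without a test. They cover the 10 ligands only: outside them, Ccl27a averaged 25.8 FPKQ in WT, and Ccl21a 62.9 in Scl_Ab and 47.1 in Vehicle libraries.

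**Figure D3:**
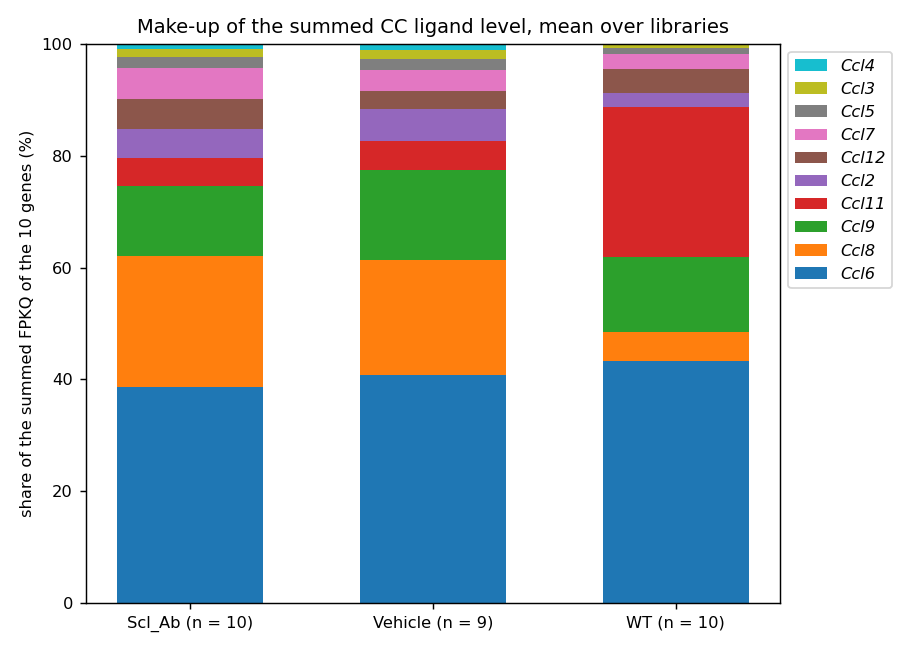
Mean share of each ligand in the summed FPKQ of the 10 genes (percent, stacked bars) for Scl_Ab, Vehicle and WT libraries. Ccl11 fills 26.9% of the WT bar against 5.05% and 5.11% of the Scl_Ab and Vehicle bars, and Ccl8 fills 5.12% of the WT bar against 23.3% and 20.5%.

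Because genes of one cluster are neighbours, their balance within a library was also tested, an analysis chosen after the levels had been seen. For each library the log2(FPKQ + 1) of a gene minus that of its neighbour was taken for all 13180 neighbouring pairs of tested genes, and limma was run over all pairs with adjustment over all of them. Of all pairs, 5.64% were called in Scl_Ab against Vehicle, 50.2% in Vehicle against WT and 49.5% in Scl_Ab against WT. Of the 8 pairs within the ligand clusters, 1 was called in Scl_Ab against Vehicle, 5 in Vehicle against WT and 3 in Scl_Ab against WT, so the counts against WT lie near the share of all pairs.

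Ccl7 gained on Ccl2 in Scl_Ab against Vehicle. The ratio of Ccl7 to Ccl2 ranged over 0.766 to 2.00 (median 0.956) in Scl_Ab, over 0.303 to 0.855 (median 0.583) in Vehicle and over 0.267 to 1.86 (median 1.06) in WT libraries. Of the 10 Scl_Ab libraries, 7 lay above the highest Vehicle library on the tested scale. The WT range overlapped both groups, with 4 of 9 Vehicle libraries below the lowest WT library and 1 of 10 Scl_Ab libraries above the highest. The log2 difference of the balance was 0.69 (SE 0.165) in Scl_Ab against Vehicle (limma adjusted p = 0.0148). It was -0.70 (SE 0.165) in Vehicle against WT (limma adjusted p = 0.000903) and -0.01 (SE 0.161) in Scl_Ab against WT (limma adjusted p = 0.964). With pseudocounts of 0.1 and 0.01 the balance in Scl_Ab against Vehicle was 0.79 and 0.81 with adjusted p-values of 0.0587 and 0.0722, so the call depends on the pseudocount. It was kept whichever library of these 2 groups was left out, with differences of 0.59 to 0.74 (limma adjusted p = 0.0105 to 0.0361). Heart muscle markers also differed between these groups: their summed level had a median of 428 FPKQ (53.4 to 1087) in Scl_Ab and 105 FPKQ (32.5 to 519) in Vehicle libraries, with 1 of 7, Nppa, called higher. Of 8 endothelial markers, Pecam1 and Vwf were called lower in Scl_Ab, and the part of these differences in the balance was not tested.

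Against WT, the balances that shifted most on the log2(FPKQ + 1) scale involved Ccl11 and Ccl8. This ranking is for a pseudocount of 1, and it was not made with others. Ccl11 minus Ccl7 was lower by 2.75 on the log2 scale in Scl_Ab (that is -2.75, SE 0.366, limma adjusted p = 3.96e-07) and stood at -2.12 in Vehicle (SE 0.376, limma adjusted p = 3.21e-05). Ccl12 minus Ccl11 was at 2.22 in Scl_Ab (limma adjusted p = 2.12e-06) and 1.49 in Vehicle (limma adjusted p = 0.000543). Ccl8 minus Ccl12 was at 1.91 in Scl_Ab (limma adjusted p = 7.03e-05) and 2.36 in Vehicle (limma adjusted p = 5.87e-06). Ccl7 and Ccl12, on either side of Ccl11, were called higher in both AngII-infused groups, and Ccl11 was not.

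In the other cluster, only Ccl6 minus Ccl9 was called on the log2(FPKQ + 1) scale, and only in Vehicle against WT. Ccl6 minus Ccl9 was at -0.30 in Vehicle against WT (SE 0.116, limma adjusted p = 0.0339), and the call was lost in 10 of the 19 fits that left out 1 library, without Vehicle library 1, 5, 6 or 8 or any WT library from 24 to 29. In Scl_Ab against Vehicle it was 0.29 (SE 0.116, limma adjusted p = 0.136). The ratio of Ccl6 to Ccl9 ranged over 2.35 to 3.84 (median 3.07) in Scl_Ab, over 2.08 to 3.14 (median 2.50) in Vehicle and over 1.95 to 4.55 (median 3.60) in WT libraries. Those ranges overlapped for all 3 groups. Ccl9 minus Ccl5, Ccl3 minus Ccl6 and Ccl4 minus Ccl3 passed in none of the 3 comparisons. The WT medians of Ccl3, Ccl4 and Ccl5 lay below the pseudocount of 1, which understates their change. Ratios of mean FPKQ in Vehicle against WT were 11.5 for Ccl3, 14.9 for Ccl4 and 6.08 for Ccl5. They were 3.53 for Ccl6 and 4.73 for Ccl9. Other pseudocounts are not given for these 3 balances, so the missing calls do not show that they held against WT.

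**Figure D4:**
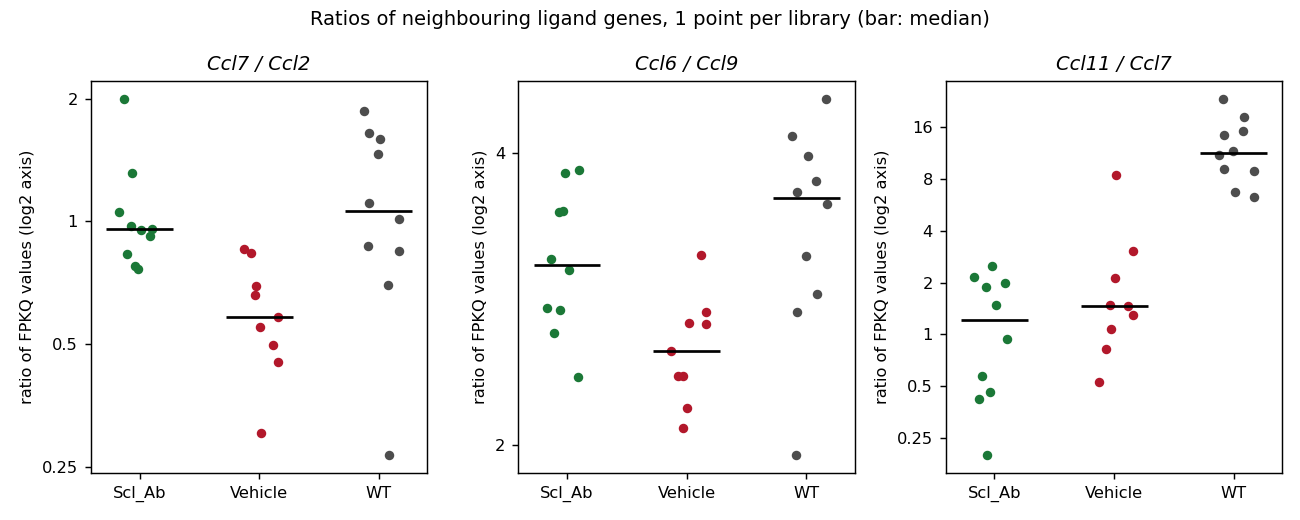
Ratios of FPKQ of Ccl7 to Ccl2, Ccl6 to Ccl9 and Ccl11 to Ccl7 in each library (log2 axis), for Scl_Ab, Vehicle and WT, with the median as a bar. The Ccl7 to Ccl2 medians are 0.956, 0.583 and 1.06, and the Ccl11 to Ccl7 medians are 1.21, 1.45 and 11.3.

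Libraries of one group did not rank alike for all ligands. Vehicle library 9 was the lowest of its group for Ccl2, Ccl3, Ccl4, Ccl7 and Ccl12, yet it stood at the group median for Ccl8 (42.7 FPKQ) and above it for Ccl6 (73.8, against a median of 72.2). Vehicle library 7 was the highest for Ccl3 (7.22) and Ccl4 (3.93) and the lowest for Ccl8 (11.3), Ccl9 (20.7) and Ccl11 (4.70). Scl_Ab library 13 was the highest of its group for Ccl2, Ccl7, Ccl8 and Ccl12, and library 16 the lowest for Ccl2, Ccl7, Ccl8 and Ccl9. No library was highest or lowest of its group for all 10 ligands.

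Within groups, 2 of 135 pairs of ligands (45 pairs in each of 3 groups) passed for Pearson's r with Benjamini-Hochberg adjustment over the 135. Both were in Vehicle. Ccl9 and Ccl6 had r = 0.944 (exact permutation p = 0.000201, adjusted p = 0.0136) and Spearman's rho = 0.9 (exact permutation p = 0.00203, adjusted p = 0.122), with r = 0.788 without the 2 libraries farthest from the median of Ccl6. Ccl7 and Ccl2 had r = 0.938 (exact permutation p = 0.000149, adjusted p = 0.0136) and rho = 0.883 (exact permutation p = 0.00308, adjusted p = 0.122), with r = 0.876 without the 2 farthest. No pair passed for rho in any group. In Scl_Ab the same pairs had r = 0.869 for Ccl9 and Ccl6 (permutation p = 0.00395, adjusted p = 0.0762; rho = 0.745, permutation p = 0.0169, adjusted p = 0.233; r = 0.591 without the 2 farthest). Ccl7 and Ccl2 had r = 0.893 in Scl_Ab (permutation p = 0.00176, adjusted p = 0.0594; rho = 0.842, permutation p = 0.00361, adjusted p = 0.122; r = 0.549 without the 2 farthest). In WT, Ccl7 and Ccl2 had r = 0.566 (permutation p = 0.0888, adjusted p = 0.333; rho = 0.455, permutation p = 0.19, adjusted p = 0.579; r = 0.157 without the 2 farthest). Ccl9 and Ccl6 had r = 0.782 in WT (permutation p = 0.00762, adjusted p = 0.103; rho = 0.685, permutation p = 0.0354, adjusted p = 0.332; r = 0.416 without the 2 farthest). In the coding sequence these genes are no near copies: Ccl3 and Ccl4 were the most alike of the 45 pairs at 68.4% identity over the alignment, Ccl6 and Ccl9 had 64.6%, and no member except Ccl9 shared a run of 50 transcript bases with another gene (1.97% of such runs in Ccl9).

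**Figure D5:**
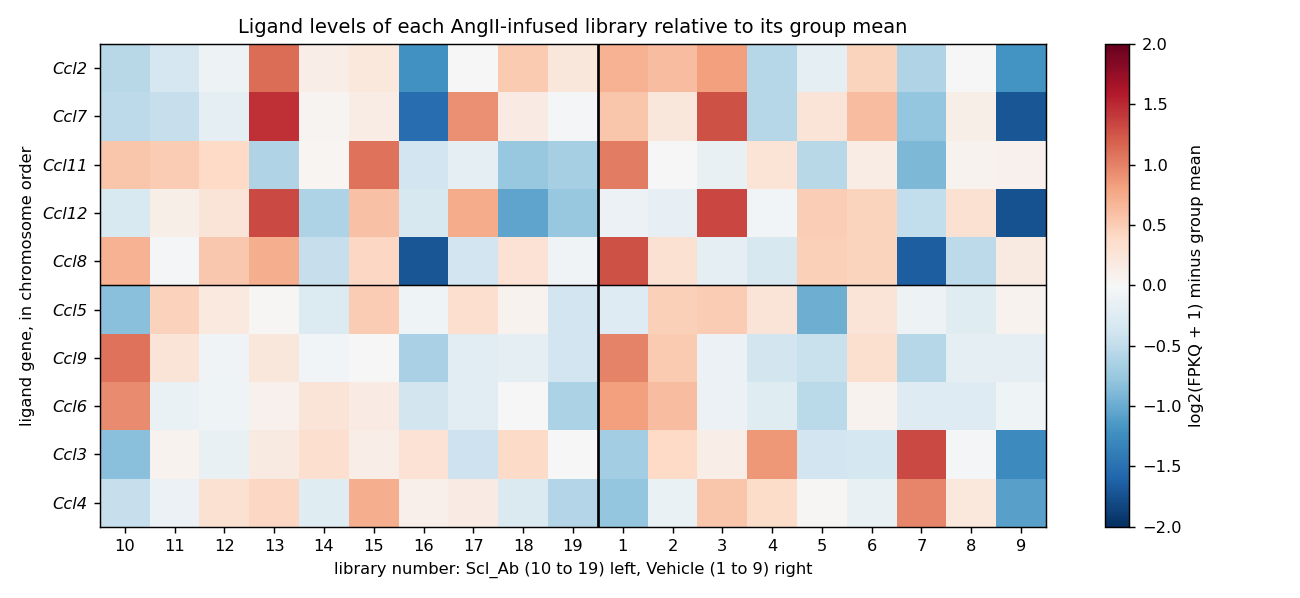
Level of each ligand in each AngII-infused library as log2(FPKQ + 1) minus its group mean (colour), with Scl_Ab libraries 10 to 19 on the left, Vehicle libraries 1 to 9 on the right, and genes in chromosome order. Library 9 is low for Ccl2, Ccl7, Ccl12, Ccl3 and Ccl4, and Ccl2 with Ccl7 and Ccl9 with Ccl6 shade alike along the rows.

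General macrophage markers rose in the same comparisons as the ligands, and 2 related lists did so in part. All 12 general markers were called higher in both AngII-infused groups against WT and 0 of 12 in Scl_Ab against Vehicle (limma, 2 at an unadjusted p under 0.05). Over all genes tested, 19.8% were called higher in Scl_Ab and 22.7% in Vehicle against WT. In Scl_Ab against Vehicle 7.44% of all genes tested were called, so 0 of 12 is near that share. Mpeg1, a pore-forming protein of macrophages, averaged 42.3 ± 16.8 FPKQ in Scl_Ab, 59.6 ± 25 in Vehicle and 1.42 ± 0.609 in WT libraries (SD, n = 10, 9 and 10). The summed level of the 12 ranged over 828 to 1887 FPKQ in Scl_Ab, 1035 to 3340 in Vehicle and 94.8 to 298 in WT libraries. Within groups, a ligand's level followed the mean log2 level of these markers in 1 of 30 relations, Ccl5 in WT (r = 0.915, permutation p = 0.00053, adjusted p = 0.0159; rho = 0.939, permutation p = 0.0002, adjusted p = 0.006; r = 0.919 without the 2 farthest libraries). In Vehicle the r values of the 10 ligands ranged from -0.587 for Ccl8 to 0.606 for Ccl3 with none passing, and in Scl_Ab from -0.108 for Ccl7 to 0.682 for Ccl4. In WT they ranged from -0.152 for Ccl3 to 0.915 for Ccl5, with a median of 0.701, against medians of 0.253 in Scl_Ab and 0.222 in Vehicle. Of 6 resident macrophage markers, 3 rose and 1, Timd4, fell in Scl_Ab against WT, and 4 rose in Vehicle against WT. Of 7 foam cell markers, 6 rose in both AngII-infused groups, and Cd9 fell in Scl_Ab against WT (0.695-fold, limma adjusted p = 0.000185). The part of macrophage number in the ligand differences was not tested.

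Some markers of other leukocytes were also called higher against WT. Of all genes tested, 19.8% were called higher and 30.5% lower in Scl_Ab, and 22.7% higher and 31% lower in Vehicle. Of 10 T cell markers, the 2 that passed the filter, Il7r and Trbc2, were called higher in both AngII-infused groups against WT, and Il7r was lower in Scl_Ab against Vehicle (0.602-fold, limma adjusted p = 0.0121). The summed T cell level ranged over 5.29 to 12.4 FPKQ in Scl_Ab, 5.82 to 15.7 in Vehicle and 0.690 to 1.64 in WT libraries. By mean, Il7r was its largest part in both AngII-infused groups. Il7r averaged 2.77 FPKQ in Scl_Ab, 5.36 in Vehicle and 0.074 in WT libraries. Cd3d, Cd3e and Cd3g averaged 0.224, 0.188 and 0.781 in Scl_Ab, 0.173, 0.205 and 0.606 in Vehicle, and 0.051, 0.062 and 0.172 in WT libraries. Of 6 neutrophil markers, 3 passed the filter, and 2 rose in Scl_Ab and 3 in Vehicle against WT. Of 6 dendritic cell markers, 4 passed, and 3 rose in each AngII-infused group, while Zbtb46 was not called. Il7r, Trbc2, Csf3r, Itgax, Cd209a and Clec9a reached 1 FPKQ in no WT library, so they passed the filter through the AngII-infused groups. None of the 6 NK cell and 5 B cell markers reached the filter. The part of these cells in the ligand differences was not tested. Of 6 eosinophil markers, only Ear2 passed the filter, and it was called higher in both AngII-infused groups against WT. Ear2 averaged 8.87 ± 4.68 FPKQ in Scl_Ab, 14.2 ± 5.91 in Vehicle and 1.61 ± 0.742 in WT libraries (SD, n = 10, 9 and 10), while no other gene of that list exceeded 0.519 FPKQ in any library. The eosinophil peroxidase gene Epx was listed at 0 in every library. Of 7 smooth muscle markers, 6 fell in both AngII-infused groups against WT. In Vehicle against WT, 4 of 9 fibroblast, 5 of 8 endothelial, 1 of 7 adipocyte and 0 of 7 heart muscle markers rose. In Scl_Ab against WT, 3 of 9, 3 of 8, 3 of 7 and 5 of 7 of these rose, and 1 adipocyte marker fell. The part of these tissues in the ligand differences was not tested.

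Among the CC receptors, Ccr1 and Ccr2 passed the filter and were called higher in both AngII-infused groups against WT. Ccr1 reached 1 FPKQ in no WT library and Ccr2 in 2, so both passed the filter through the groups where they were high. Ccr2 averaged 13.1 ± 5.35 FPKQ in Scl_Ab, 8.06 ± 3.45 in Vehicle and 0.806 ± 0.328 in WT libraries (SD, n = 10, 9 and 10). Its fold was 4.75 in Vehicle against WT (limma adjusted p = 2.27e-09). In Scl_Ab against Vehicle it stood at 1.55-fold (1.13 to 2.12), with 5 of 10 Scl_Ab libraries above the highest Vehicle library and a limma adjusted p of 0.0745. Ccr1 was at 2.18-fold in Vehicle against WT (limma adjusted p = 1.03e-05), and neither receptor was called in Scl_Ab against Vehicle. Among receptors below the filter, the highest values were 0.0996 FPKQ for Ccr3, the receptor of Ccl11, 0.0959 for Ccr8, the receptor of Ccl8, 0.0498 for Ccr4, 0.293 for Ccr6, 0.119 for Ccr9, 0.962 for Ccr7 and 1.74 for Ccr10.

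Of 5 decoy and scavenging receptors, which bind chemokines without the usual signalling, Ackr1 rose and Ccrl2 fell against WT in both AngII-infused groups. Over all genes tested, 50.4% were called in Scl_Ab and 53.7% in Vehicle against WT, so calls in this list were not more common than elsewhere. Ackr1 was at 1.49-fold in Scl_Ab (limma adjusted p = 0.0295) and 1.47-fold in Vehicle (limma adjusted p = 0.0398), and Ccrl2 at 0.651-fold (limma adjusted p = 2.07e-05) and 0.773-fold (limma adjusted p = 0.00555). Ackr2, which scavenges inflammatory CC chemokines, was at 1.04-fold in Scl_Ab and 1.15-fold in Vehicle against WT, and Ackr3 and Ackr4 lay between 1.17-fold and 1.24-fold. None of these 3 was called.

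Of 14 other CC ligands, 13 were listed in the files and 6 passed the filter. In both AngII-infused groups Ccl17, Ccl19 and Ccl21a rose and Ccl27a fell against WT. Calls over all genes tested stood at 50.4% in Scl_Ab and 53.7% in Vehicle against WT. Ccl17 reached 1 FPKQ in no WT library and passed the filter through the other groups. Ccl21a, the lymphatic ligand of Ccr7, averaged 62.9 ± 44.7 FPKQ in Scl_Ab, 47.1 ± 34.9 in Vehicle and 8.34 ± 4.29 in WT libraries (SD, n = 10, 9 and 10). Ccl27a averaged 15.1 ± 4.89 FPKQ in Scl_Ab, 12.5 ± 2.43 in Vehicle and 25.8 ± 3.62 in WT libraries, and its fold in Vehicle against WT was 0.5 (0.414 to 0.605, limma adjusted p = 5.12e-07). Ccl24, which like Ccl11 acts on Ccr3, was called lower in Scl_Ab against WT (0.619-fold, limma adjusted p = 0.0112) and stood at 0.834-fold in Vehicle against WT (limma adjusted p = 0.346). None of the 6 was called in Scl_Ab against Vehicle. Near-identical copies of Ccl21a and Ccl27a exist in the mouse genome, so their counts are uncertain.

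Of 22 NF-kB and inflammatory inducer genes, which act upstream of many chemokines, 18 passed the filter. In Vehicle against WT 11 of these rose and 2 fell, against 22.7% and 31% of all genes tested. In Scl_Ab against WT 14 rose and 1 fell, against 19.8% and 30.5% of all genes tested. In Scl_Ab against Vehicle 3 rose and 2 fell, against 2.64% and 4.8% of all genes tested. Rela, an NF-kB subunit, was at 1.19-fold in Scl_Ab against Vehicle (limma adjusted p = 0.0202) and Nfkb2 at 1.27-fold (limma adjusted p = 0.028). Rel, another subunit, was at 0.867-fold (limma adjusted p = 0.0244) and Nfkbia, the inhibitor that holds NF-kB in the cytoplasm, at 0.566-fold (limma adjusted p = 0.0395). Stat6 was at 1.14-fold (limma adjusted p = 0.0246). Against WT, Rel was at 1.48-fold (limma adjusted p = 2.03e-09) and Cd14 at 3.36-fold (limma adjusted p = 6.43e-08) in Vehicle. Rela was lower than in WT, at 0.732-fold in Vehicle (limma adjusted p = 1.34e-06) and 0.869-fold in Scl_Ab (limma adjusted p = 0.00838). In Scl_Ab against Vehicle, members of this list moved in both directions, and no ligand was called.

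Outside the 10 ligands, the genes whose levels were most like each ligand were found by Pearson's r of log2(FPKQ + 1) minus the group mean over the 19 AngII-infused libraries, as a description over libraries of 1 tissue. By the same measure, Ccl2 and Ccl7 had r = 0.917 and Ccl6 and Ccl9 r = 0.907, and the genes named next leave out the ligands themselves. Ccl11 was most like C1s1 (r = 0.922) and C4b (r = 0.918), genes of the complement system. Ccl9 was most like Ifi205 (r = 0.910) and Ms4a8a (r = 0.879), and Ccl8 like Cfb (r = 0.796) and Ifi205 (r = 0.795). Ccl2 was most like Rbbp8 (r = 0.820) and Ccr1 (r = 0.810), and Ccl7 like Ms4a4c (r = 0.825) and Cep192 (r = 0.776). Ccl3 was most like Rilpl2 (r = 0.843) and the cholesterol exporter Abcg1 (r = 0.822), and Ccl4 like Cd300lb (r = 0.879) and Arhgap19 (r = 0.864). Ccl12 was most like Sgk3 (r = 0.853) and the interferon-induced gene Mx1 (r = 0.833), Ccl5 like AU020206 (r = 0.795) and the adhesion molecule Vcam1 (r = 0.791), and Ccl6 like AC166827.1 (r = 0.846) and Ifitm6 (r = 0.808).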

How the data were processed

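The authors deposited 1 table per library with FPKQ values, an FPKM-like unit that the files do not spell out (the 85th percentile of a library lay between 6.99 and 7.30). Genome build GRCm38 and DESeq2 1.10.1 are named in the submitters' processing notes without a role; for the aligner, the counter and the annotation, names were not given in the sources used here. The labels' protocols state a stranded mRNA kit, and whether counting used strand is not given. Read counts were not used, so depth was estimated from the steps between low values of genes in each library (79 to 84% within 0.05 of a whole number).

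From these values log2(FPKQ + 1) was fitted with limma 3.58.1 (R 4.3.3; trend and robust options) in 1 model with 3 group means for 13510 genes, and tested on simulated data. Neighbouring pairs were ordered by GENCODE M21 (13201 of 13510 symbols placed). Correlations used exact permutation for 9 libraries and 100000 resamples for 10. Alternatives were other pseudocounts, filters and scalings, array weights, only the 2 groups compared, a Wilcoxon rank sum test and leaving out each library. The closest libraries within a group differed well beyond rounding, so none was counted as a copy. The labels describe satellite animals and p-values measure the spread between these libraries. The members and gene lists were chosen with earlier results of these data known. The named genes were all members, CC and decoy receptors (1 result is not reported here), at most 3 genes with the smallest p of each other list, and the 2 genes most like each member; Epx, Cd9, Nfkb2 and Nfkbia were named after their values were seen.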

Additional observations from a re-analysis of the deposited data

Results flagged for a closer look

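Single libraries stood apart from the rest of their group for 10 of the 72 gene and group combinations examined (the 10 ligands and the 14 tested receptors, decoy receptors and other CC ligands in 3 groups). There the gap to the nearest other library exceeded the 95% critical value of Dixon's test on FPKQ, without logarithm. Chance gives about 1 in 20 for normally distributed values only, which was not tested here. All 10 flagged values were high, and their count was not read as an excess over chance. Scl_Ab library 10 was high for Ccl6, at 139 FPKQ against 86.0 in the next library, and for Ccl9, at 50.3 against 27.8. Vehicle library 1 was high for Ccl11, at 20.5 against 11.8, for Ccl24, at 5.91 against 2.64, and for Ackr1, at 8.07 against 3.50. Vehicle library 3 was high for Ccl12, at 15.4 against 8.19. Scl_Ab library 13 was high for Ccr1, at 6.28 against 3.15, Scl_Ab library 17 for Ccl27a, at 26 against 17.5, Scl_Ab library 12 for Ackr4, at 3.00 against 1.64, and Vehicle library 7 for Ccrl2, at 8.81 against 5.75. No WT library was flagged.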

How the results depend on the processing

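The counts of ligands called were 9 or 10 of 10 in Vehicle against WT and in Scl_Ab against WT, and 0 in Scl_Ab against Vehicle, under each of the 10 other settings and each fit that left out 1 library. Ccl11 decided the difference. In Scl_Ab against WT its call ended with no filter (log2 difference -0.56, limma adjusted p = 0.0801), with trimmed mean of M values scaling (-0.52, adjusted p = 0.0611) and with equal totals (-0.52, adjusted p = 0.0648); in Vehicle against WT it was gained with array weights (-0.55, adjusted p = 0.013) and without both Vehicle library 1 and Scl_Ab library 10 (-0.58, adjusted p = 0.0338). Among the uncalled values in Scl_Ab against Vehicle, that of Ccl4 (0.01) changed sign with array weights (-0.15), the Wilcoxon test (-0.028, difference of medians) and without both of these libraries (-0.038). Leaving out 1 library gave -0.13 to 0.13 for Ccl4, -0.031 to 0.29 for Ccl3, -0.042 to 0.35 for Ccl8 and -0.23 to 0.014 for Ccl11. In Scl_Ab against WT, the balance of Ccl7 and Ccl2 was 0.0007 with a pseudocount of 0.01 and ran from -0.11 to 0.037 with 1 library left out, and that of Ccl6 and Ccl9 from -0.088 to 0.038. The cause was not tested. The settings for the balances were chosen after seeing the data. With equal totals, 240 genes were called higher and 129 lower in Scl_Ab against Vehicle, against 356 and 649 as deposited; the 2 groups alone gave 309 calls in all. No paired analysis was possible because no replicate number is shared between groups. Depth limits Ccl3 and Ccl4 in WT, at 0 to 11 estimated fragments.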
